A study of Homo sapiens with 2 samples.

Results

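The genes described here are 10 human pseudouridine synthases, TRUB1, TRUB2, PUS1, PUS3, PUS7, PUS7L, PUSL1, RPUSD1, RPUSD2 and RPUSD3, among 19775 genes that the array reads with a probe set of their own. They were taken as every probe set that the platform's annotation assigns to 1 of these genes alone, which gave 19 probe sets of 54675 on the array. The set was chosen by the measured ratio of TRUB1, already known to be among the lowest in GAS2DN cells relative to Venus cells, and filled with its relatives. The values of TRUB1 are therefore a description, and the relatives are set beside it. The cells were MEG-01, a megakaryoblastic line from chronic myeloid leukemia in blast crisis. One group was transduced with a lentivirus carrying GAS2DN, a truncated, dominant negative form of GAS2, and the other with the control lentivirus (Venus, a yellow fluorescent protein). Both groups were sorted for fluorescent cells, and the transgene was driven by the spleen focus forming virus promoter. RNA of 3 independent extracts was pooled per group before hybridisation, and the chip was the Human Genome U133 Plus 2.0. There was thus 1 GAS2DN array and 1 Venus array, no replicate of either group and no test between them.

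Pseudouridine synthases turn a uridine already built into RNA into its isomer pseudouridine, which stacks and pairs more firmly than uridine. Most of these enzymes work alone and recognise sequence and shape in transfer RNA, and several also act on messenger RNA or on mitochondrial RNA. They fall into families named after bacterial enzymes. TRUB1 and TRUB2 are TruB-type, PUS1, PUS3 and PUSL1 are TruA-type, PUS7 and PUS7L are TruD-type, and RPUSD1, RPUSD2 and RPUSD3 are RluA-type. DKC1, the other TruB-type enzyme of human cells, is guided by small nucleolar RNAs in the box H/ACA particle.

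Signals are MAS5 values scaled so that both arrays had the same 2% trimmed mean, 500.1. The median signal was 69.1 on the GAS2DN array and 55.6 on the Venus array. A probe set is called eligible below when the brighter of its pair of signals reached the median of its own array. The main probe set of a gene is its brightest by mean log2 signal, leaving out those ending in _x_at where the gene has another. The 13086 genes with an eligible main probe set are called measured. All 10 synthases were measured, and 15 of their 19 probe sets were eligible. The name MEG-01 comes from the sample titles, and marker signals are given beside it without establishing identity. ITGA2B, the platelet integrin subunit, had signals of 9238 in GAS2DN and 7149 in Venus cells, and TAL1 had 9481 in GAS2DN and 8674 in Venus cells. GFI1B had 5273 in GAS2DN and 5160 in Venus cells, NFE2 4295 and 2975, and GATA1 1516 and 1617. Dimmer markers were GP9 with 546 in GAS2DN and 469 in Venus cells, TUBB1 with 466 and 304, and ITGB3 with 162 and 88.5. PF4 was below the median on both arrays, with 25.9 in GAS2DN and 40.8 in Venus cells. Over 9 megakaryocyte markers the main signals summed to 31001 in GAS2DN and 26478 in Venus cells, sums in which the brightest genes weigh most. The 7 T and B cell markers summed to 451 in GAS2DN and 369 in Venus cells, the 6 monocyte and granulocyte markers to 473 in GAS2DN and 418 in Venus cells and the 5 fibroblast markers to 235 in GAS2DN and 197 in Venus cells. None of these markers was at 0, and the part of other cells in any result was not tested. GAS2 itself was below the median on both arrays, with 34.7 in GAS2DN and 24.3 in Venus cells. Whether its probe set lies within the transgene was not examined here.

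TRUB1, the synthase that makes the pseudouridine found in the T arm of nearly all transfer RNAs and that also binds the let-7 microRNA precursor, was far lower in GAS2DN cells. Its main probe set 226339_at had a signal of 261 in GAS2DN cells, against 1451 in Venus cells. The ratio of GAS2DN to Venus was 0.180, a log2 difference of -2.47, which is 5.55-fold lower. On the GAS2DN array this signal lay at percentile 70.6 of all probe sets, and on the Venus array at percentile 88.2, so both readings were above the median of their arrays. Since the arrays read bulk RNA, fewer cells with TRUB1 RNA and less of it per cell cannot be told apart.

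The other 4 probe sets of TRUB1 were dim. The probe set 241606_s_at had 38.3 in GAS2DN and 73.8 in Venus cells, a ratio of 0.519, and was the only eligible one of the 4, through its Venus signal alone. The probe set 235447_at had 11.5 in GAS2DN and 37.3 in Venus cells, a ratio of 0.308. The probe set 236020_s_at had 14.5 in GAS2DN and 32.7 in Venus cells, and its ratio was 0.442. In 241605_at the signals were 28.1 in GAS2DN and 35.4 in Venus cells, with a ratio of 0.795. In all 5 probe sets the signal was lower in GAS2DN cells, and only in 226339_at were both signals above the median. Dim probe sets vary widely here. Among 16144 single-gene probe sets that stayed below both array medians, 14.1% were over 3-fold lower in GAS2DN cells and 24.4% were over 3-fold higher, and 39.2% had any lower signal. These shares do not cover 226339_at and 241606_s_at, whose Venus signals were above the median. TRUB1 was chosen for its low ratio, so the shared direction of its 5 probe sets is a description.

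**Figure D1:**
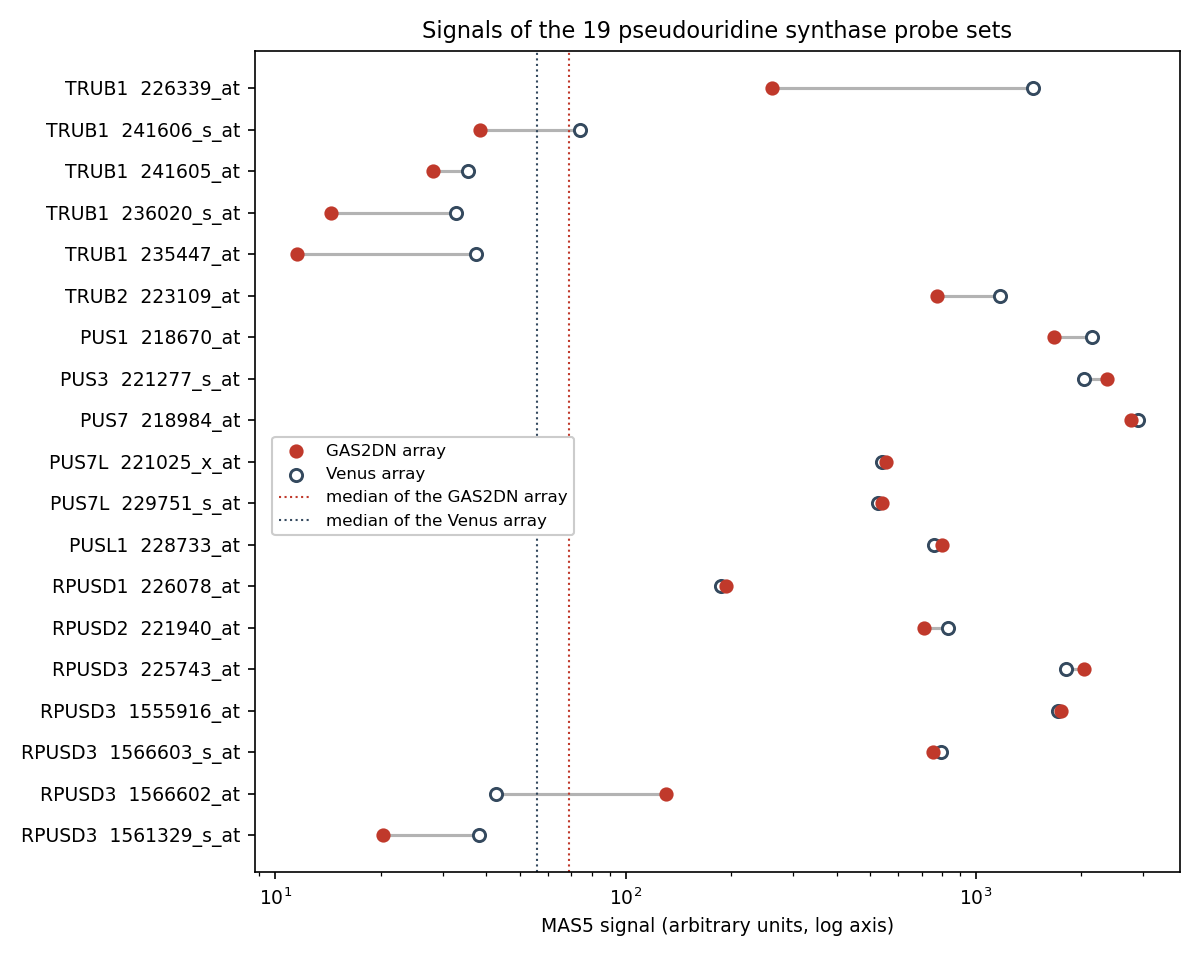
Signals of the 19 probe sets on the GAS2DN array (filled red) and on the Venus array (open), on a log axis in arbitrary MAS5 units, with the median of each array as a dotted line. The 5 TRUB1 probe sets are lower on the GAS2DN array, and most probe sets of the other genes have nearly overlapping points.

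TRUB2, the closest relative of TRUB1 in this set and an enzyme of mitochondrial RNA, had the second lowest ratio of the 10 genes. Its only probe set, 223109_at, had a signal of 776 in GAS2DN cells, against 1172 in Venus cells, a ratio of 0.663 and a log2 difference of -0.59. TRUB1 lay 1.88 log2 units below TRUB2. The spread between probe sets that read the same gene at the same brightness was used to judge such differences, since replicate arrays do not exist here. Its SD was 0.39 in the tenth of signals that holds the main TRUB1 probe set and 0.31 in the tenth that holds TRUB2. By this measure 3 of the 10 main probe sets differed by more than 1 SD, those of TRUB1, TRUB2 and PUS1, where 32.7% of the measured genes did. The count is near that share, and TRUB1 is the gene the set was chosen for.

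The promoters of TRUB1 and TRUB2, the genes with the lowest ratios of the set, are shown from RefSeq on GRCh38.p14. Each window runs from 250 bases before the annotated start to 50 bases after it, and 7 of the 10 genes had such an entry. TRUB1 lies at chr10:114937945-114938244 on the plus strand and TRUB2 at chr9:128322398-128322697 on the minus strand. Capitals mark TATAAA, the core of the TATA box, and GGGCGG, the core of the GC box, where either was found.
TRUB1: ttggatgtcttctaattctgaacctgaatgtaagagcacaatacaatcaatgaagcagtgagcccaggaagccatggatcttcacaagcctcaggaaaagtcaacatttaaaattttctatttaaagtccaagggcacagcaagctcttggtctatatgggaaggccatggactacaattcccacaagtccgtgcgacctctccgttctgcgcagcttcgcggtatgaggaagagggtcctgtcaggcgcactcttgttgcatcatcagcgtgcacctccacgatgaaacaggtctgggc
TRUB2: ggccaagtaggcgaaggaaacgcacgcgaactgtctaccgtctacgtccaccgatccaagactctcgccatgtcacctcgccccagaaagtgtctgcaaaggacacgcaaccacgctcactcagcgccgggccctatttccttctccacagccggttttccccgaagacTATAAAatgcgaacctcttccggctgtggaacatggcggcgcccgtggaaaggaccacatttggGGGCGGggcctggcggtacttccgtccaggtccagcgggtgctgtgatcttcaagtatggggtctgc
Both strands of each window were searched for the words TATAAA and GGGCGG and for the word CCAAT, and the TRUB1 window held none of the 3. The TRUB2 window held TATAAA once, from 81 to 76 bases before the start, and GGGCGG once, from 17 to 12 bases before it, with no overlap between them, and it did not hold CCAAT. Over 35116 promoter windows of this length, TATAAA was found in 11.5%, CCAAT in 34.6% and GGGCGG in 45.0%. The TRUB1 window had 48.3% G and C bases and 9 CG dinucleotides, against medians of 58.7% and 14 over all windows. Of all windows 28.0% had a G and C share at or below that of TRUB1, and 43.6% had as few CG dinucleotides or fewer. Among the other synthases with a window the G and C share ran from 51.0% in PUS3 to 81.3% in RPUSD1. The TRUB2 window had 59.7% G and C bases and 24 CG dinucleotides. These matches are a description of the sequence, and no binding was measured.

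Of the TruA-type genes PUS1 was lower than the others. PUS1, which modifies transfer RNA in the nucleus and in mitochondria, had a signal of 1672 in GAS2DN and 2150 in Venus cells in 218670_at, a ratio of 0.778 and a log2 difference of -0.36. This is slightly more than the SD of 0.31 between probe sets of like brightness. PUS3, which acts on the anticodon arm of transfer RNA, had 2372 in GAS2DN and 2032 in Venus cells, a log2 difference of 0.22. PUSL1, a mitochondrial member, had 798 in GAS2DN and 758 in Venus cells, a difference of 0.07. Both differences were smaller than the spread between probe sets, with SDs of 0.25 and 0.39.

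The TruD-type genes had the narrowest range of main log2 differences of the families. PUS7, which recognises a short uridine-containing motif in transfer RNA and messenger RNA, had 2766 in GAS2DN and 2898 in Venus cells, a log2 difference of -0.07. PUS7L, its paralog, was read by a pair of probe sets. The main one, 229751_s_at, had 540 in GAS2DN and 524 in Venus cells, and 221025_x_at had 555 in GAS2DN and 541 in Venus cells, with log2 differences of 0.04 in each. The sign of the PUS7L difference turned when the arrays were centred on the median difference, to -0.01.

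Among the RluA-type genes RPUSD1 had 194 in GAS2DN and 187 in Venus cells, a log2 difference of 0.05 that turned to a value below 0 under each of the 3 other scalings, the lowest being -0.03. RPUSD2 had 712 in GAS2DN and 831 in Venus cells, a difference of -0.22, within the SD of 0.39 between probe sets. RPUSD3, which acts on mitochondrial RNA, had the most probe sets besides TRUB1. The main one, 225743_at, had 2030 in GAS2DN and 1813 in Venus cells, and 1555916_at had 1752 in GAS2DN and 1717 in Venus cells. The probe set 1566603_s_at had 753 in GAS2DN and 797 in Venus cells. These 3 bright probe sets had log2 differences of 0.16, 0.03 and -0.08. In the dim range the probe sets of RPUSD3 parted, with 131 in GAS2DN and 42.7 in Venus cells in 1566602_at, 3.06-fold higher. The dimmest, 1561329_s_at, had 20.3 in GAS2DN and 38.1 in Venus cells, and its ratio was 0.532. The Venus signal of 1566602_at was below the array median, as were both signals of 1561329_s_at.

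Set beside its relatives, TRUB1 stood alone past the 3-fold line used by the study. By main probe sets 1 of 10 synthases was over 3-fold lower in GAS2DN cells, where 2.33% of the 13086 measured genes were, and none of the 10 was over 3-fold higher, where 4.54% were. TRUB1 was the gene the set was chosen for, so nothing is read from that count. The other 9 had log2 differences between -0.59 and 0.22, with an SD of 0.27 among them, and 7 of the 9 lay within 1.2-fold of equal signals, where 50.7% of the measured genes did. The 50.7% includes many dimmer genes, whose ratios vary more. Their median was 0.04, and that of all 10 was -0.01, beside 0.06 for all measured genes. Over eligible probe sets of single genes, 3.36% were over 3-fold lower and 4.96% over 3-fold higher in GAS2DN cells. The synthases had 1 of 15 on each side, 226339_at of TRUB1 and 1566602_at of RPUSD3. Nothing is read from these counts either, since the set was chosen for TRUB1 and 1566602_at was eligible through its GAS2DN signal alone.

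Brightness sets how far a ratio on these arrays tends to stray. Among 1810 measured genes whose mean log2 signal was within 0.5 of that of TRUB1, percentile 5 and percentile 95 of the log2 difference were -0.66 and 0.55, and TRUB1 with 1 other gene had values at or below -2.47. Where both signals had to reach the array median, 0.188% of 11156 genes were over 3-fold lower in GAS2DN cells, and TRUB1 had the second lowest ratio of them. Over all measured genes, which include many with 1 dim signal, TRUB1 was in place 142 from the lowest. The set was chosen by this ratio of TRUB1, so its places describe that choice and test nothing. Of the 2007 genes of the brightness of TRUB2, 4.68% had a value at or below that of TRUB2, and for PUS1 the share was 11.0% of 1837 genes. The other 7 synthases lay between percentiles 21.6 and 82.4 among genes of their own brightness.

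**Figure D2:**
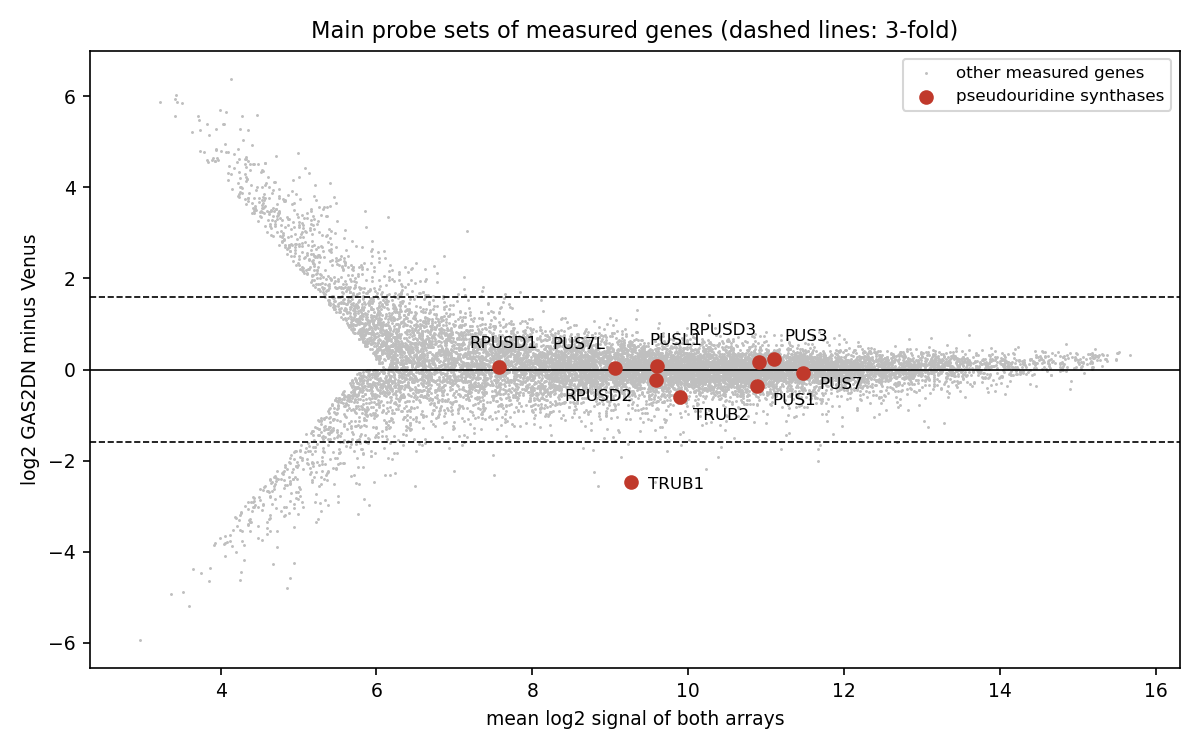
Log2 GAS2DN minus Venus signal (vertical axis) by mean log2 signal of both arrays for the main probe sets of 13086 measured genes (grey), with the 10 synthases in red and dashed lines at 3-fold. TRUB1 lies at -2.47, below the grey cloud at its brightness, and the other 9 lie between -0.59 and 0.22.

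The 5 measured genes whose pair of log2 signals lay nearest to that of TRUB1, by Euclidean distance over the 2 arrays, were SIKE1, GLRX, DBR1, TTF2 and HS3ST3A1. DBR1, the enzyme that debranches intron lariats, had 340 in GAS2DN and 1059 in Venus cells, and its second probe set had 409 in GAS2DN and 553 in Venus cells. HS3ST3A1, a heparan sulfate sulfotransferase, had 204 in GAS2DN and 964 in Venus cells in its only probe set. GLRX, TTF2 and SIKE1 had main ratios of 0.182, 0.170 and 0.265. Their other probe sets had ratios of 1.44 in GLRX, 1.70 in TTF2 and 1.27 to 1.64 in the 4 of SIKE1. The further probe set of TTF2 and 1 of those of SIKE1 were not eligible. On chromosome 10 the nearest annotated genes with a probe set of their own were FHIP2A before TRUB1 and ATRNL1 after it. FHIP2A had 458 in GAS2DN and 410 in Venus cells, and its dim second probe set had 2.56 in GAS2DN and 37.4 in Venus cells. The 3 probe sets of ATRNL1 were all below the array medians and differed in direction, with 10.5 in GAS2DN and 51.9 in Venus cells in the main one, 14.7 in GAS2DN and 3.64 in Venus cells in the second and 2.34 in GAS2DN and 2.22 in Venus cells in the third.

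The remaining pseudouridine synthases on the array were RPUSD4 and PUS10, while DKC1 had no probe set assigned to it alone. RPUSD4, which modifies mitochondrial ribosomal RNA, had 4157 in GAS2DN and 4189 in Venus cells, a log2 difference of -0.01. PUS10, which makes a pseudouridine next to that of TRUB1 in some transfer RNAs, had 296 in GAS2DN and 342 in Venus cells, a difference of -0.21. Its second probe set had 41.6 in GAS2DN and 77.1 in Venus cells, and the third had 24.9 in GAS2DN and 2.05 in Venus cells. Neither gene came near the difference of TRUB1 in its main probe set.

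Of the 5 proteins of the box H/ACA particle and its assembly, NAF1 was the only one over 2-fold lower in GAS2DN cells, where 4.45% of measured genes were. NAF1, an assembly factor, had 2805 in GAS2DN and 5778 in Venus cells in 244828_x_at, whose name marks possible cross-hybridisation. NOP10 had 22880 in GAS2DN and 16189 in Venus cells, and NHP2 had 18990 in GAS2DN and 14770 in Venus cells, both core proteins of the particle, with log2 differences of 0.50 and 0.36. GAR1, another core protein, had -0.15 and SHQ1, the chaperone of DKC1, had -0.01.

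Of 69 other transfer RNA modification enzymes 63 were measured, and their median log2 difference was -0.03, with 35 below 0, or 55.6%, where 43.8% of all measured genes were below 0. The 43.8% covers genes of every brightness, and no share among genes as bright as these enzymes was taken. Those over 3-fold were TRMT10B, with 1.999 in GAS2DN and 72.4 in Venus cells, and TRMT2B, with 188 in GAS2DN and 40.5 in Venus cells. Of all measured genes 2.33% were over 3-fold lower and 4.54% over 3-fold higher. Only the GAS2DN signal of TRMT2B reached the array median. Its log2 difference of 2.22 was 1.42 when the array median was added to each signal. The TRMT10B log2 difference of -5.18 was larger in size than that of TRUB1, but only its Venus signal reached the array median, and the difference was -0.07 when signals below the array median were raised to it. Each of these genes had a second probe set over 2-fold the other way, with 145 in GAS2DN and 50.5 in Venus cells for TRMT10B and 22.7 in GAS2DN and 81.0 in Venus cells for TRMT2B. That of TRMT10B, 240166_x_at, was brighter than its main one by mean log2 signal and was passed over for its ending. The next lowest were ALKBH8, a wobble uridine enzyme, with 206 in GAS2DN and 403 in Venus cells, though 298 in GAS2DN and 253 in Venus cells in its second probe set, and TRMT6. TRMT6, a subunit of a transfer RNA adenosine methyltransferase, had 1070 in GAS2DN and 1885 in Venus cells, a log2 difference of -0.82, and its second probe set had 567 in GAS2DN and 1307 in Venus cells, a difference of -1.21. The highest after TRMT2B were NSUN3, a mitochondrial cytosine methyltransferase, with 0.66, and ADAT2, a subunit of the wobble adenosine deaminase, with 0.65, though -0.34 in a second probe set.

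Of 26 transfer RNA processing and splicing genes 23 were measured, with a median log2 difference of -0.03, and none was over 2-fold lower or over 2-fold higher, where 4.45% and 7.91% of all measured genes were. The lowest were RPP40, a ribonuclease P subunit, with -0.37, TSEN34, a subunit of the transfer RNA splicing endonuclease, with -0.37, and ELAC2, the nuclease that trims the end of transfer RNA precursors, with -0.36. The highest were POP5, another ribonuclease P subunit, with 0.40, RTRAF, a part of the transfer RNA ligase complex, with 0.21, and ELAC1 with 0.17, though -0.41 in its second probe set.

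**Figure D3:**
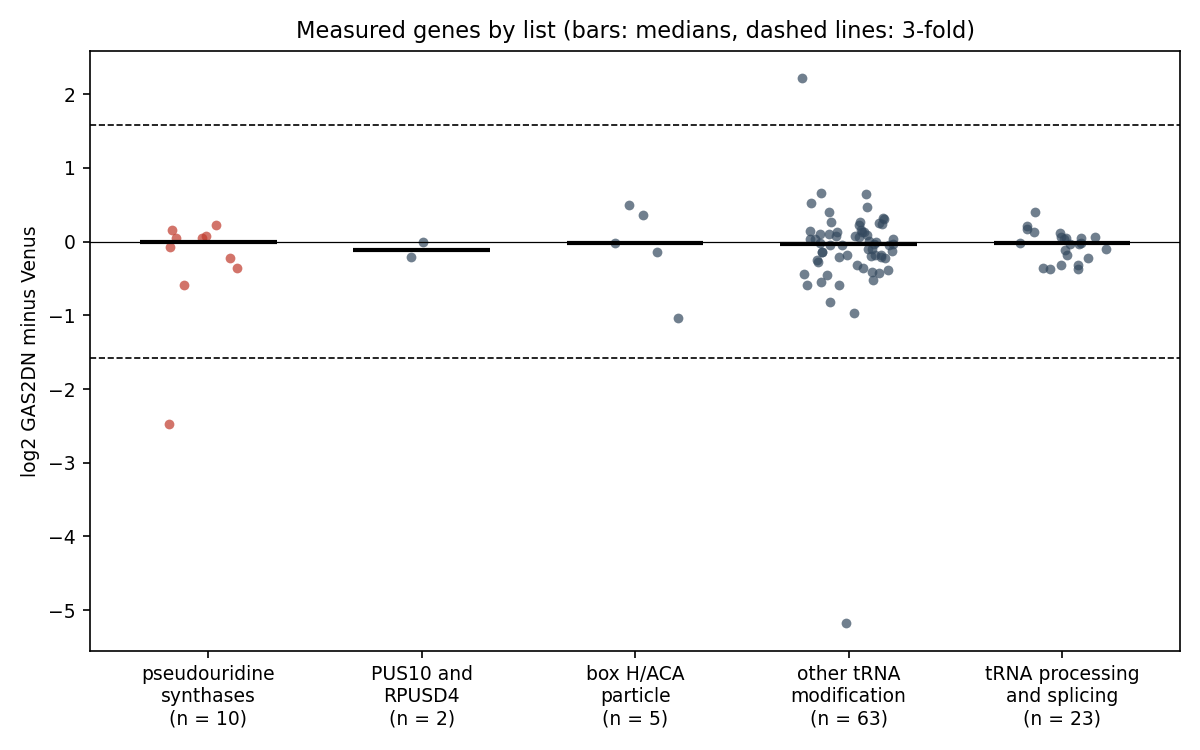
Log2 GAS2DN minus Venus signal of the main probe sets of measured genes in 5 lists (points), with list medians as bars and dashed lines at 3-fold. All list medians lie between -0.11 and -0.01, and TRUB1 is the only synthase past the lower line.

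TRUB1, the gene the set was chosen for, had the lowest ratio of the measured synthases under each of the 11 other ways of processing tried. Its log2 difference lay between -2.53 and -0.95. Changes of filter, the raising of low signals and the removal of _s_at and _x_at probe sets could not change its main value of -2.47. Those settings therefore do not show how stable that value is. The value of -0.95 comes from the second brightest TRUB1 probe set, 241606_s_at, in which TRUB1 was not over 3-fold lower. RPUSD3 was the only other synthase measured there. Taken as the median of the 2 eligible TRUB1 probe sets, the difference was -1.71, but 241606_s_at was eligible only through its Venus signal. The median over all 5 TRUB1 probe sets was -1.18, which is not over 3-fold lower. No other synthase passed 3-fold under any of these settings.

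**Figure D4:**
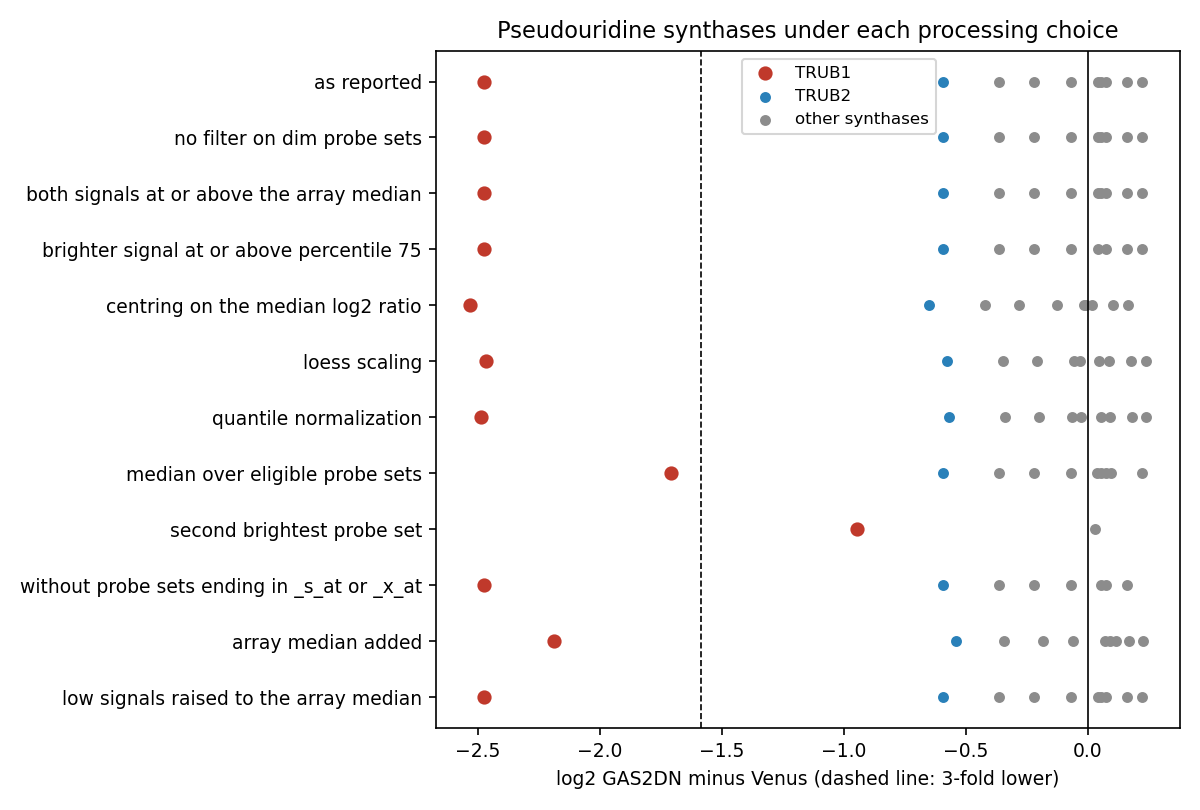
Log2 GAS2DN minus Venus signal of each synthase (horizontal axis) under the reported processing and 11 alternatives (rows), with TRUB1 in red, TRUB2 in blue, the other synthases in grey and a dashed line at 3-fold lower. TRUB1 lies left of the dashed line in all rows but that of the second brightest probe set, where it has -0.95.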

How the data were processed

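RNA of MEG-01 cells transduced with GAS2DN or Venus was pooled from 3 extracts per group and hybridised to 1 array each. The values are the log2 MAS5 signals that the authors deposited, with a 2% trimmed mean of 500.1 on both arrays after conversion to linear signals. The submitters' processing notes name MAS5, and its version is not given in the sources used here. Detection calls were not used here. Ratios are GAS2DN over Venus.

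Of 54675 probe sets 62 controls were left out of the medians, and 41091 were assigned to 1 gene by the platform's table, the only ones used. Of these 41037 were matched to RefSeq by gene identifier. Main probe sets left out those ending in _x_at where a gene had another. With 1 array per group the number of arrays limits the precision, and no p-value was computed. For scale, the SD of the log2 difference between probe sets of the same gene was taken in 10 bins of mean log2 signal. It compares probe sets within the same 2 arrays and is not an error between replicates. The genes and gene lists were chosen with earlier results of these data known. All 10 synthases were named, with the 3 highest and 3 lowest genes of each larger list, every gene of the smaller lists, the 5 genes nearest to TRUB1 and its neighbours. Alternatives changed the filter, the scaling (quantile, loess at a span of 0.2, or centring), the choice of probe set and the handling of low signals. Promoter windows on chromosome 8 were not used here. Steps were tested on simulated data. The software was numpy 2.4.6, pandas 2.3.3 and statsmodels 0.14.6 under Python 3.11.15.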

Additional observations from a re-analysis of the deposited data

How the results depend on the processing

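No paired analysis was possible because each group had 1 array of pooled RNA, and for the same reason no replicate could be left out. By the median over eligible probe sets TRUB1 had a log2 difference of -1.71, and over all 5 of its probe sets the median was -1.18. By the second brightest probe set TRUB1 had -0.95, the number of synthases over 3-fold lower was 0, and the median of the synthases was -0.46, but this setting measured only 2 of the 10 genes, TRUB1 and RPUSD3. The main probe sets of these 2 genes alone had a median of -1.16, so the fall in the median comes with the loss of the other 8 genes. The cause of the TRUB1 differences between probe sets was not tested. In the other settings the TRUB1 difference, the counts over 3-fold and the medians with and without TRUB1 moved by less than the spread between probe sets. Some of these settings could not move the TRUB1 difference, as stated above. The median without TRUB1 lay between -0.07 and 0.07, on either side of 0. TRUB2 stayed between -0.65 and -0.54 and PUS1 between -0.42 and -0.34, over the 10 settings that measured them. Each has 1 probe set, so changes of filter or of probe set could not change their values. Differences with the opposite sign were found by the second brightest probe set in GLRX with 0.53, SIKE1 with 0.70, TRMT2B with -1.84, ALKBH8 with 0.24, ADAT2 with -0.34, ELAC1 with -0.41 and SHQ1 with 0.18, and by the median over eligible probe sets in SIKE1 with 0.37, ELAC1 with -0.12 and SHQ1 with 0.08. Scaling turned the sign in PUS7L, RPUSD1, RPUSD4 and SHQ1, each within 0.1 of 0. With signals below the median raised to it, TRMT10B had -0.07. Scaling moved the median of all measured genes by less than 0.1. Signals below the array median limit 4 of the 5 TRUB1 probe sets, and their ratios carry little weight on their own.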
